A study of Tetranychus urticae with 24 samples.

Results

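Transcript levels of 5 genes of the spider mite *Tetranychus urticae* that code for sensory receptors, an ion channel and gap junction proteins were followed across all treatments of a study of insecticide synergists. The genes were taken by ID from the table of 19087 genes and are the homolog of the ionotropic receptor IR25A (tetur30g01550), a gustatory receptor (tetur01g01400), a Na+ channel of the ENaC/degenerin family (tetur09g00460) and the putative innexins tetur08g07510 and tetur35g00650. RNA came from whole adult female mites, pooled, of the single strain JP-R, which is kept on bean and withstands cyenopyrafen and cyflumetofen, acaricides that block mitochondrial complex II. Mites were left unsprayed (CON), sprayed with formulation only (FORM; N,N-dimethylformamide and emulsifier W in water) or sprayed with 1000 ppm piperonyl butoxide (PBO), 500 ppm S,S,S-tributyl phosphorotrithioate (DEF), 2000 ppm diethyl maleate (DEM) or 50 ppm cyclosporin A (CsA) in that formulation, and mites alive after 24 h were collected. Each of the 6 groups had 4 biological replicates, and since it is not stated whether these were sprayed apart, p-values measure the spread between such pools. PBO inhibits cytochrome P450s, DEF inhibits carboxyl esterases, DEM depletes glutathione and CsA is used as an inhibitor of ABC transporters.

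Arthropods sense chemicals through receptor channels in the dendrites of sensory neurons, which in mites sit in hairs on the front legs and palps. Ionotropic receptors derive from the glutamate receptors of synapses and open as ion channels when a ligand binds, and in *Drosophila* IR25A is a co-receptor that many tuned ionotropic receptors need. Gustatory receptors are a separate family of ligand-gated channels, known from the taste neurons of insects, and ENaC/degenerin channels (called pickpocket channels in *Drosophila*) pass sodium and take part in salt taste, pheromone detection and touch. Innexins form the gap junctions of invertebrates, through which ions and small molecules move between neighbouring cells. Innexins couple neurons as electrical synapses, and in the *Drosophila* ovary they couple germ cells to the somatic cells around them.

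The 5 genes owe their place here to their values in these libraries. The study called the IR25A homolog with PBO, the gustatory receptor with DEM, and the channel and both innexins with DEF, each against FORM. The comparison that chose a gene is therefore given as a description, and tests are given only for libraries that it did not use. For each gene the 4 groups outside that comparison were tested together, and the synergists among them were tested against CON. Since CON mites were unsprayed, a comparison with CON takes in the synergist and the formulation spray together. The tests came from a single edgeR quasi-likelihood fit of all genes with enough reads, with Benjamini-Hochberg adjustment over those genes. Against CON a gene was called where its adjusted p was under 0.05 and its fold change (FC) at least 1.5 in either direction, and in the test of 4 groups by the adjusted p alone. An FC below zero stands for a decrease. Levels are CPM, the counts of a gene relative to the TMM-scaled total of its library, as mean ± SD over 4 libraries. In RNA of whole mites, fewer cells of a type and less RNA per cell cannot be told apart.

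The libraries held 13824851 to 18198286 counts. Of 19087 genes 12736 had enough reads to be tested, the 5 members among them. CsA replicate 4, DEM replicate 1 and CON replicate 3 stood farthest from the other replicates of their groups, with a root mean square difference of 0.603, 0.563 and 0.538 on the log2 scale over the 5000 most variable genes, against 0.351 to 0.464 for the other libraries. Calls that changed without them are given with and without them. The vitellogenin genes tetur20g01230 and tetur07g05480, which code for the precursor of egg yolk, were at 74.4 CPM or more and 471 CPM or more in every library, as is usual for adult females.

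**Figure D1:**
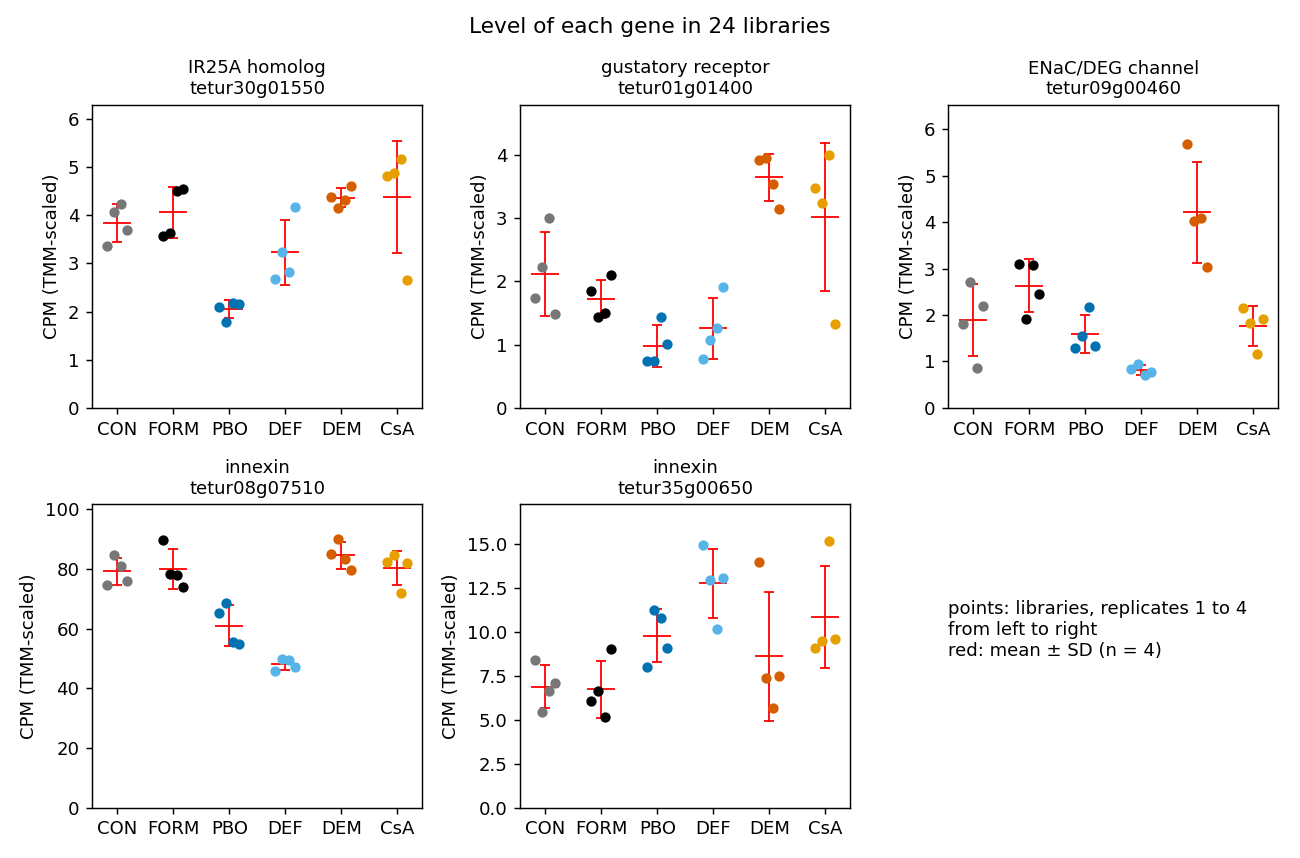
Level of the 5 genes in each of the 24 libraries, in CPM after TMM scaling, by group on the x axis. Points are libraries in the order of replicates 1 to 4, and red bars give the mean ± SD of 4 libraries. The IR25A homolog lay lowest with PBO (2.05 ± 0.182 CPM), the channel and the innexin tetur08g07510 lowest with DEF (0.815 ± 0.101 and 48.0 ± 1.98 CPM), and CsA replicate 4 lay below the other CsA libraries for both receptor genes.

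The IR25A homolog (tetur30g01550) was low in mites treated with PBO, and a call among CON, DEF, DEM and CsA depended on single libraries. It lay at 3.56, 3.64, 4.50 and 4.54 CPM in replicates 1 to 4 of FORM and at 2.08, 1.79, 2.18 and 2.16 CPM in those of PBO, a FC of −1.97 (log2 FC −0.98, SE 0.180). This is the comparison that chose the gene. All PBO libraries lay below every other library of the study. The libraries of PBO and FORM did not overlap for 17.8% of all genes tested. In unsprayed mites the gene lay at 3.37, 4.07, 4.23 and 3.69 CPM, close to FORM (log2 FC of FORM against CON 0.075, SE 0.166).

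With DEF the IR25A homolog lay at 2.68, 3.24, 2.82 and 4.16 CPM, with DEM at 4.38, 4.15, 4.31 and 4.61 CPM and with CsA at 4.82, 4.87, 5.16 and 2.65 CPM. Replicate 4 of CsA lay far below its group, with 40 counts against 71 to 72 in the other CsA libraries. The 4 groups that did not choose the gene ran from 3.23 ± 0.667 CPM with DEF to 4.37 ± 1.16 CPM with CsA. They did not pass the test in edgeR (adjusted p = 0.115), while 33.1% of all genes tested did. Without CsA replicate 4 the adjusted p was 0.00828, without DEF replicate 4 it was 0.0437, and without CsA replicate 4, DEM replicate 1 and CON replicate 3 together it was 0.0121 (edgeR). Against CON none of the synergists DEF, DEM and CsA passed the call rule for this gene, with log2 FC of −0.26 (SE 0.171), 0.19 (SE 0.164) and 0.18 (SE 0.166).

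In the order of its group means the IR25A homolog went from CsA over DEM, FORM, CON and DEF to PBO. Each pair of neighbours in this order overlapped in its libraries except DEF and PBO. The counts behind these levels were few, 29 to 82 per library. In the PBO libraries the coefficient of variation was 8.86%, below the 17.4% that counting alone gives at that depth, and in the CsA libraries it was 26.5% against 12.5%.

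The gustatory receptor (tetur01g01400) had its highest mean with DEM and was lower with PBO than in unsprayed mites. It lay at 1.84, 1.44, 1.5 and 2.10 CPM with FORM and at 3.92, 3.95, 3.54 and 3.15 CPM with DEM, a FC of 2.11 (log2 FC 1.08, SE 0.273) in the comparison that chose it. All DEM libraries lay above every library of CON, FORM, PBO and DEF, and DEM and FORM did not overlap for 20.4% of all genes tested. In unsprayed mites it lay at 1.74, 2.23, 3.00 and 1.49 CPM, where the highest value belongs to CON replicate 3. Against CON the FC with DEM was 1.71 (log2 FC 0.78, SE 0.263). This comparison shares the DEM libraries with the one that chose the gene, so no test is given.

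With PBO the gustatory receptor lay at 0.735, 0.739, 1.43 and 1.01 CPM, so that all PBO libraries were below all CON libraries (PBO and CON did not overlap for 20.5% of all genes tested). It fell with PBO against CON by a FC of −2.15 (log2 FC −1.11, SE 0.314, adjusted p = 0.0162, edgeR's quasi-likelihood test). At 12 to 23 counts with PBO and 23 to 49 with CON this call depended on single libraries: the adjusted p was 0.0718 without CON replicate 3, 0.0543 without PBO replicate 1 and 0.0536 without PBO replicate 2 (edgeR). The decrease kept its direction in each of these. With DEF the gene lay at 0.774, 1.08, 1.27 and 1.90 CPM, and the FC of −1.70 against CON did not pass (adjusted p = 0.0968, edgeR). Without DEF replicate 4 it did (log2 FC −1.05, adjusted p = 0.0481, edgeR).

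With CsA the gustatory receptor lay at 3.48, 3.24, 4.00 and 1.32 CPM. Replicates 1 to 3 were above every CON library and replicate 4 was below them all. The FC of 1.42 against CON did not pass over the 4 libraries (adjusted p = 0.219, edgeR), and it passed without CsA replicate 4 (log2 FC 0.75, adjusted p = 0.0292, edgeR), and without this library, DEM replicate 1 and CON replicate 3 (log2 FC 0.96, adjusted p = 0.0120, edgeR). Over CON, PBO, DEF and CsA together the gene passed the test (adjusted p = 8.91e-04, edgeR), with PBO lowest and CsA highest, 3.05-fold apart. Among all genes tested 38.4% passed this test of the same groups. In the order DEM, CsA, CON, FORM, DEF, PBO each group overlapped with the next, so that the order of neighbours is not separated by the spread of their libraries.

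The levels of the IR25A homolog and the gustatory receptor varied together over the libraries. On log2 CPM their Pearson r was 0.845 and their Spearman rho 0.865 over 24 libraries. An r over 0.8 was not particular to this pair. Among 11583 genes with a mean of at least 1 CPM, 311 (2.68%) had it with the IR25A homolog. With the gustatory receptor 524 (4.52%) had it. Both values of a point come from the same library and share its depth, and points of a group share their treatment. Without the PBO libraries of replicates 1 and 2, the farthest from the median of the IR25A homolog, r was 0.791. The relation was also present among replicates: on the deviations from the group means r was 0.808 over 24 libraries, and 0.650 without CsA replicate 4. Such an r on the deviations was not particular to this pair either. The 3 genes with the highest r over the libraries had 0.763 to 0.826 on the deviations with the IR25A homolog. For the gustatory receptor its 3 such genes had 0.748 to 0.827. The share of all genes with such an r on the deviations was not counted. No p is given, because both genes were chosen on some of these libraries. The other pairs of members had r from −0.60 to 0.74 over the 24 libraries, and from −0.365 to 0.193 on the deviations from the group means.

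**Figure D2:**
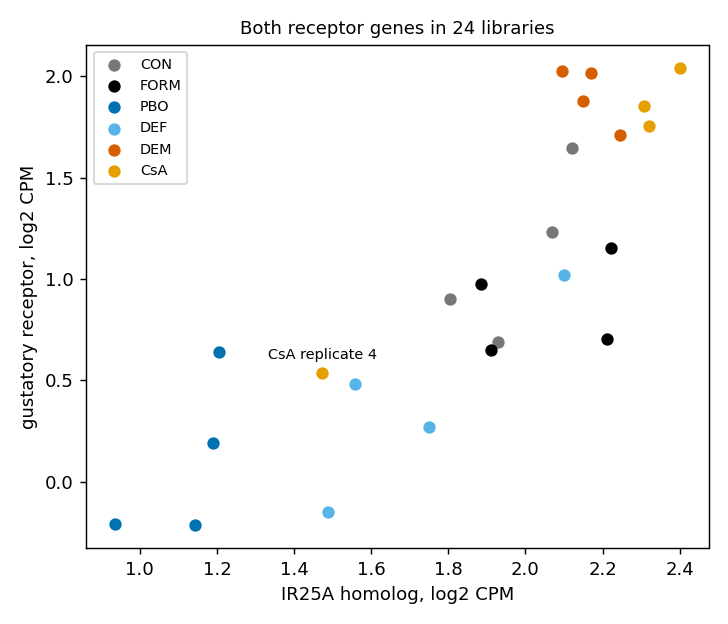
log2 CPM (prior count of 2) of the IR25A homolog on the x axis and of the gustatory receptor on the y axis, with a point for each of the 24 libraries, coloured by group. PBO libraries lie lowest on the x axis and overlap with DEF on the y axis. DEM libraries and the CsA libraries other than replicate 4 lie highest on the y axis, and on the x axis DEM overlaps with FORM and CON. CsA replicate 4 lies beside the DEF libraries. Over the 24 libraries r was 0.845.

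The ENaC/degenerin channel (tetur09g00460) was low with DEF and high with DEM. It lay at 3.10, 1.90, 3.07 and 2.44 CPM with FORM and at 0.834, 0.945, 0.705 and 0.776 CPM with DEF, a FC of −3.20 (log2 FC −1.68, SE 0.304) in the comparison that chose it. The DEF libraries held 10 to 14 counts each, so that counting alone gives a coefficient of variation of 28.6% there. They lay below every library of FORM, PBO, DEM and CsA, and DEF and FORM did not overlap for 18.7% of all genes tested. Of the CON libraries, at 1.80, 2.71, 0.858 and 2.20 CPM, replicate 3 lay within the range of DEF.

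With DEM the channel gene lay at 5.68, 4.02, 4.09 and 3.04 CPM, above all CON libraries. It rose with DEM against CON with a FC of 2.20 (log2 FC 1.14, SE 0.247, adjusted p = 0.00952 in edgeR's quasi-likelihood test). The libraries of DEM and CON did not overlap for 17.2% of all genes tested. The mean of FORM also lay above that of CON (log2 FC 0.46, SE 0.260). Against FORM the log2 FC with DEM was 0.67 (SE 0.240) and the libraries overlapped. The FORM libraries belong to the comparison that chose the gene, so no test is given. Leaving out 1 library of DEM or CON at a time gave log2 FC from 0.90 to 1.37 and adjusted p from 0.00579 to 0.0477 (edgeR). Without CON replicate 3, DEM replicate 1 and CsA replicate 4 together the log2 FC was 0.71 with an adjusted p of 0.0693, and the call did not hold. A fit of DEM and CON alone gave nearly the same log2 FC, 1.13, with an adjusted p of 0.0548 (edgeR).

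With PBO the channel gene lay at 1.29, 1.54, 2.18 and 1.33 CPM and with CsA at 2.14, 1.82, 1.16 and 1.92 CPM. Both groups overlapped with CON, with log2 FC of −0.26 (SE 0.278) and −0.10 (SE 0.277), and neither was called. Over CON, PBO, DEM and CsA the gene passed the test (adjusted p = 2.59e-04, edgeR), with DEM 2.64-fold above PBO. Among all genes tested 40.8% passed this test of the same groups. Its means went in the order DEM, FORM, CON, CsA, PBO, DEF. Neighbours in this order overlapped except PBO and DEF.

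The innexin tetur08g07510 had the most counts of the 5 genes, 666 to 1561 per library, and its replicates lay close together. In unsprayed mites it lay at 74.7, 84.8, 81.1 and 76.0 CPM and with FORM at 89.7, 78.4, 78.0 and 74.0 CPM. With DEF it lay at 45.7, 49.9, 49.4 and 47.0 CPM, a FC of −1.67 against FORM (log2 FC −0.74, SE 0.0750) in the comparison that chose it. The DEF libraries lay below all others (DEF and FORM did not overlap for 18.7% of all genes tested).

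With PBO the innexin tetur08g07510 lay at 65.3, 68.4, 55.4 and 54.7 CPM, between DEF and the other groups and overlapping with none of them. Of all genes tested 20.5% did not overlap between PBO and CON, and 17.8% between PBO and FORM. The decrease of this innexin with PBO against CON was smaller than the minimum FC of 1.5 and was thus not called, but it was larger than the spread between replicates (FC −1.30, log2 FC −0.38, SE 0.0739, adjusted p = 0.00120, edgeR's quasi-likelihood test). Leaving out 1 library of PBO or CON at a time gave log2 FC from −0.43 to −0.33.

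With DEM this innexin lay at 84.9, 90.1, 83.4 and 79.5 CPM and with CsA at 82.2, 84.6, 71.8 and 82.0 CPM. Both overlapped with CON, with log2 FC of 0.094 (SE 0.0732) and 0.019 (SE 0.0735). Over CON, PBO, DEM and CsA the gene passed the test (adjusted p = 1.47e-04, edgeR), and PBO and DEM, the lowest and the highest, lay 1.39-fold apart. In its order DEM, CsA, FORM, CON, PBO, DEF the first 4 groups overlapped with their neighbours, and PBO and DEF were each separate.

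The innexin tetur35g00650 had its highest mean with DEF, where its relative tetur08g07510 had its lowest. It lay at 6.09, 6.64, 5.18 and 9.01 CPM with FORM and at 15.0, 13.0, 10.2 and 13.0 CPM with DEF, a FC of 1.91 (log2 FC 0.93, SE 0.226) in the comparison that chose it. All DEF libraries lay above all libraries of FORM and CON, and DEF and CON did not overlap for 18.9% of all genes tested. In unsprayed mites it lay at 8.42, 5.43, 6.62 and 7.11 CPM.

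With PBO the innexin tetur35g00650 lay at 8.03, 11.3, 10.8 and 9.07 CPM, with DEM at 14.0, 7.38, 5.67 and 7.48 CPM and with CsA at 9.11, 9.46, 15.2 and 9.60 CPM. Single libraries stood high in these groups: DEM replicate 1, which also stood apart over the most variable genes, and CsA replicate 3. All CsA libraries were above all CON libraries, which was the case in either direction for 12.4% of all genes tested. The FC of 1.57 with CsA against CON did not pass in edgeR (log2 FC 0.65, SE 0.227, adjusted p = 0.0660) and passed in DESeq2 (adjusted p = 0.0307). In edgeR it also passed without CON replicate 1 (adjusted p = 0.0449) or CsA replicate 4 (adjusted p = 0.0490), and without CsA replicate 4, DEM replicate 1 and CON replicate 3 together (adjusted p = 0.0357). The log2 FC against CON was 0.51 (SE 0.227) with PBO and 0.31 (SE 0.229) with DEM, and without DEM replicate 1 the latter was −0.025.

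Over CON, PBO, DEM and CsA the innexin tetur35g00650 did not pass the test (adjusted p = 0.0979, edgeR), and it passed without DEM replicate 1 (adjusted p = 0.00877). The order of its means was DEF, CsA, PBO, DEM, CON, FORM, and every group overlapped with the next. At 76 to 251 counts per library, its replicates differed by more than counting alone gives. The coefficient of variation was 15.4% to 42.5% within the groups, against 7.20% to 9.69% from counting.

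Of the counts of both innexin genes, tetur35g00650 took 8.07% ± 1.73 in unsprayed mites, 7.82% ± 2.15 with FORM, 13.9% ± 2.20 with PBO and 21.0% ± 3.14 with DEF (SD, n = 4). With DEM the share was 9.17% ± 3.44 and with CsA 12.0% ± 3.64. DEM replicate 1 had 14.1%, against 6.36% to 8.60% in the other DEM libraries. The share of tetur35g00650 does not depend on the scaling of the libraries, but it is not a share of molecules, since the lengths of the genes were not used here. All DEF libraries but replicate 3 lay above every library of the other groups. Both genes were chosen on DEF against FORM, in opposite directions, so that the choice itself sets the share with DEF above FORM. All PBO libraries lay above those of CON and FORM, but only just: PBO replicate 1 had 10.95% and FORM replicate 4 had 10.86%. The level of both innexins together was 86.0 ± 3.53 CPM in CON, 70.7 ± 7.21 CPM with PBO and 60.7 ± 1.45 CPM with DEF. No test is given for the share, which is made from the chosen genes.

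**Figure D3:**
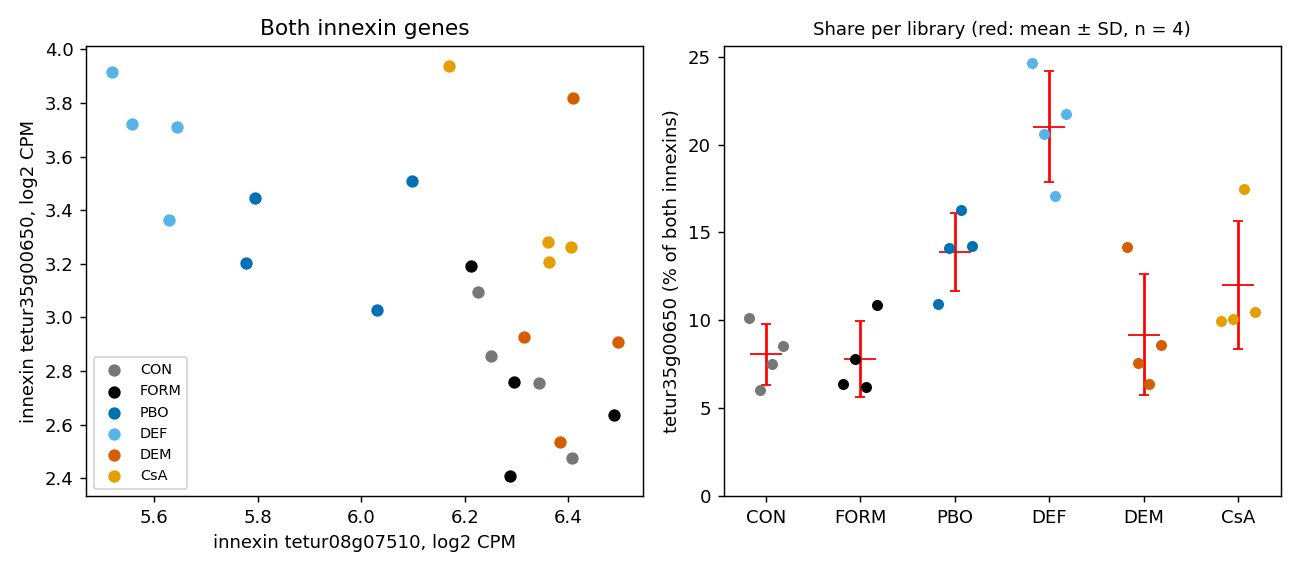
Left, log2 CPM (prior count of 2) of the innexin tetur08g07510 on the x axis and of the innexin tetur35g00650 on the y axis for the 24 libraries. Right, tetur35g00650 in percent of the counts of both innexins by group, with points for libraries and red bars for mean ± SD (n = 4), from 7.82% with FORM to 21.0% with DEF.

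Over the 5 genes, 2 of 15 comparisons of a synergist with CON on libraries that did not choose the gene passed the call rule. With PBO 1 of 4 genes passed, the gustatory receptor, beside 6.2% of all genes tested. With DEM 1 of 4 passed, the channel gene, beside 2.63%. With DEF 0 of 2 passed in edgeR, beside 4.37%, with 1 at an unadjusted p under 0.05 and 0 in DESeq2 and in limma-voom. With CsA 0 of 5 passed in edgeR, beside 2.66%, with 1 at an unadjusted p under 0.05, 1 in DESeq2 and 0 in limma-voom. In the comparisons that chose them all 5 genes passed, where 2.65% of all genes passed with PBO, 2.7% with DEF and 2.21% with DEM, and nothing is read from that count.

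Against FORM the remaining values share the FORM libraries with the comparison that chose each gene and are given without a test. With PBO the gustatory receptor, the channel and the innexin tetur08g07510 had FC of −1.75, −1.65 and −1.31, and the innexin tetur35g00650 had a FC of 1.46. With DEF the IR25A homolog and the gustatory receptor had FC of −1.26 and −1.38. With DEM the channel had a FC of 1.59 and the innexin tetur35g00650 of 1.28, while the IR25A homolog and the innexin tetur08g07510 lay near FORM at 1.08 and 1.06. With CsA the gustatory receptor and the innexin tetur35g00650 had FC of 1.75 and 1.61, and the channel of −1.48. The formulation itself had log2 FC from −0.30 (gustatory receptor) to 0.46 (channel) against CON, with SE of 0.289 and 0.260.

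**Figure D4:**
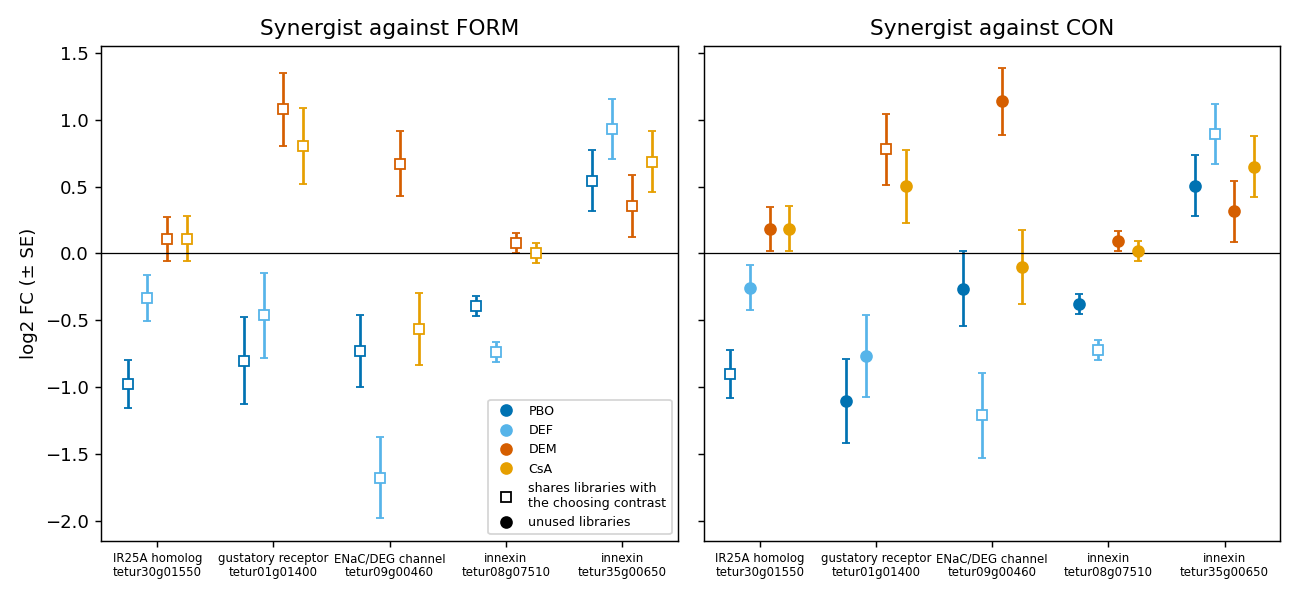
log2 FC with its SE from the fit, on the y axis, of each synergist against FORM (left) and against CON (right) for the 5 genes on the x axis. Open squares use libraries of the comparison that chose the gene and filled circles use none of them. Of the filled circles the gustatory receptor with PBO (−1.11) and the channel with DEM (1.14) passed the call rule.

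A list of 12 other receptor, neuropeptide and neural genes was taken from the study's tables of genes that responded in these libraries, so that their directions are no independent evidence. The counts and levels against CON reuse the treated libraries and are given as a description, with no p. With PBO 2 of the 12 were past the call rule as higher and 6 as lower, beside 2.71% and 3.49% of all genes tested. With DEF 2 were past it as higher and 7 as lower, beside 2.47% and 1.89%. With DEM these were 2 and 2, beside 1.59% and 1.04%, and with CsA 1 and 2, beside 1.68% and 0.981%. The median log2 FC of the list was −0.62 with PBO, −0.65 with DEF, 0.19 with DEM and 0.15 with CsA, beside medians of all genes tested between −0.0091 and 0.015. The notch-like gene tetur12g01120, named after a receptor of signals between neighbouring cells, lay at 5.53 ± 0.505 CPM in CON, 2.92 ± 0.341 CPM with PBO and 11.1 ± 1.20 CPM with DEM. The neuropeptide receptor gene tetur13g02680, a G-protein coupled receptor, lay at 26.3 ± 11.1 CPM in CON, 43.7 ± 11.0 CPM with PBO and 52.6 ± 3.22 CPM with DEF. Glass (tetur07g01570), a transcription factor of photoreceptor cells in *Drosophila*, lay at 22.9 ± 0.83 CPM in CON and 14.9 ± 1.67 CPM with DEF.

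The genes most like each member were the 3 with the highest Pearson r on log2 CPM over the 24 libraries, among 11583 genes with a mean of at least 1 CPM. Both values of a point come from the same library, points of a group share their treatment, and r is a description. The choice of genes moved with the measure, as given in the last section. For the gustatory receptor these were a fibrillar collagen precursor (tetur28g00630, r = 0.942), tetur02g01920 and tetur12g02880, and 524 genes (4.52%) had an r over 0.8 with it. For the IR25A homolog they were a nucleolar GTPase/ATPase p130 (tetur03g06070, r = 0.915), tetur08g00600 and tetur08g07060, and 311 genes had an r over 0.8. For the innexin tetur08g07510 they were tetur02g09360 (r = 0.965), vasa (tetur10g01980, r = 0.963), an RNA helicase of the germline, and tetur33g01420, with 167 genes over 0.8. By Spearman rho vasa stood at position 29 for this innexin, and by group means at 26. Any part of germline content in the levels of this innexin was not tested. For the innexin tetur35g00650 they were tetur17g03440 (r = 0.916), a putative BigA-like protein (tetur07g00630) and tetur02g13050, with 69 genes over 0.8. The channel gene had only tetur04g00840 over 0.8 (r = 0.812), followed by tetur14g03690, with a P-loop nucleoside triphosphate hydrolase domain, and tetur16g02020.

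The 3 IDs before and the 3 after each member in the numbering of its scaffold gave 30 genes, of which 24 had enough reads. In the comparison that chose the member, these 24 had log2 FC from −0.41 to 0.81. The highest were the genes tetur01g01410, the next in number to the gustatory receptor (0.81, adjusted p = 0.0958, edgeR), tetur09g00480 (0.73, adjusted p = 0.189, edgeR) and tetur01g01420 (0.70, adjusted p = 0.188, edgeR), none of which was called. The genes tetur01g01410 and tetur01g01420 held 4 to 19 and 2 to 13 counts per library. Their r with the gustatory receptor over the 24 libraries was 0.512 and 0.742. The 6 neighbours of the IR25A homolog had log2 FC of −0.08 to 0.08 with PBO against FORM.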

How the data were processed

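Messenger RNA of 24 pools of adult females was sequenced in strand-specific pairs. According to the submitters' notes and the published methods, reads passed FastQC 0.11.4, were mapped to the mite genome by STAR 2.5.0a, were sorted by SAMtools 0.1.19 and were counted over exons by HTSeq 0.6.0 with regard to strand. The authors deposited the resulting raw counts per gene. HTSeq at its defaults drops reads that map to several places, which lowers the counts of genes with close copies. All columns were matched to samples by title.

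The tests used edgeR 4.0.16 in R 4.3.3, with DESeq2 1.42.0 and limma 3.58.1 as alternatives. filterByExpr kept 12736 of 19087 genes, and TMM set the scale of each library. A quasi-likelihood fit with a mean per group shared its estimate of the spread over 6 groups. SE is the log2 FC divided by the root of F. Code was tested on simulated data. No library repeated another (chi-square per degree of freedom of at least 3.47 within groups).

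The members, lists and tests were chosen with earlier results of these data known. Genes named are the members, their 3 most like genes, the list of 12, neighbours in number and vitellogenins. Examples from the list and the neighbours were picked with their values in view. The alternatives tried were DESeq2 size factors, no filter, at least 10 counts in every library, DESeq2, limma-voom, the compared groups alone, a replicate block and each library left out. Robust estimation and leaving out 3 libraries together were added after seeing the data. Protein and promoter sequences and gene lengths were not used here, since the reference table at hand does not pair its genes with these IDs.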

Additional observations from a re-analysis of the deposited data

Results flagged for a closer look

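Within the 6 groups of 4 libraries, each gene was checked for a library far from its group, 30 checks in all, of which chance alone flags about 1 in 20. CsA replicate 4 had 2.65 CPM of the IR25A homolog (tetur30g01550), against 4.82 to 5.16 CPM in the other CsA libraries. CsA replicate 3 had 15.2 CPM of the innexin tetur35g00650, against 9.11 to 9.60 CPM in the other CsA libraries.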

How the results depend on the processing

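Under alternatives other than single libraries, 129 of 135 values against CON kept their direction and their side of the threshold. Of the tests of 4 groups, whose distance has no direction, 43 of 45 kept their side of the threshold. The comparisons that chose the genes were not held to a threshold. The log2 distance was taken between the unused groups that were highest and lowest in the fit of all libraries. This pair was kept in each refit, also where another pair lay farther apart. With each library of the 4 groups left out in turn, the distance of DEM over DEF ran from 0.36 to 0.59 for the IR25A homolog. For the innexin tetur35g00650 that of CsA over CON ran from 0.44 to 0.75. Neither gene was called over all libraries. Without CsA replicate 4, DEM replicate 1 and CON replicate 3 together the distances of these pairs were 0.43 and 0.68. Both genes then passed the test of 4 groups (adjusted p = 0.0121 and 0.0146, edgeR). For the IR25A homolog CsA then lay above DEM, with log2 FC against CON of 0.41 and 0.22. For the gustatory receptor, the channel and the innexin tetur08g07510 the distance with each library left out ran from 1.45 to 1.86, 1.22 to 1.59 and 0.42 to 0.53. The adjusted p of the test of 4 groups was at most 0.00416 in edgeR. The log2 FC of the innexin tetur35g00650 with DEM against CON was −0.043 without those 3 libraries, with the opposite sign. Leaving out single libraries also turned the sign of 3 uncalled values against CON. They ran from −0.025 to 0.48 for that comparison, from −0.35 to 0.13 for the channel with CsA and from −0.022 to 0.057 for the innexin tetur08g07510 with CsA. The cause was not tested.

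The labels number the replicates without saying what a number stands for. Libraries of the same number correlated by −0.193 to 0.427 in their deviations from the group means, 10 of 24 libraries correlated best with their own number, and the numbers were not taken as pairs. With the number as a replicate block no call of these genes changed. The log2 distance between the same pairs of unused groups was 0.44 for the IR25A homolog, 1.60 for the gustatory receptor and 1.39 for the channel. Over all genes, calls with CsA against CON were 157 instead of 339 in a fit of these groups alone, and with DEM against CON 194 instead of 335 without the 3 libraries. Few counts, 10 to 87 per library for the receptors and the channel, limit what can be told for these genes. Of the 3 most like genes, none was among the first 3 by group means for any member, and 0 or 1 by Spearman rho.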
